A study of Mus musculus with 90 samples.

Results

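A set of 8 liver transcripts was followed through every library of a mouse study of caloric restriction and the glucocorticoid receptor (GR): *Paqr9*, *Gna12*, *Bcar1*, *Cldn2*, *Sept11*, *Apol7a*, *Mettl7b* and *D130043K22Rik*. They are 8 of the 27654 genes in the count tables, and they were chosen from the measured values, as genes with higher transcript levels in livers whose hepatocytes lack GR. The comparison of genotypes is therefore given as a description, with no test. The effects of diet and of corticosterone were measured in other mice and were tested. The genes were chosen with earlier results of these data known, so these tests may not be fully independent of the choice either. Changes over the day were tested within each genotype, in livers that may have entered the choice of the genes. Those tests are therefore not independent of the choice, and they are also given without the ZT12 livers.

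GR is a nuclear receptor that binds glucocorticoids, corticosterone in mice, and then moves to the nucleus, where it raises or lowers transcription of its target genes. Corticosterone follows a daily rhythm, with a peak before the active phase, which in mice is the night. In hepatocytes GR is best known for raising genes of glucose and amino acid metabolism, and it can also lower transcription.

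RNA of whole liver was measured in 90 libraries, each from a male mouse that was 12 weeks old when the diets began. In the time series, livers were collected at 6 Zeitgeber times 4 h apart, counted from lights on, so that the lights went off at ZT12. One arm was kept on caloric restriction (food reduced by 40%, given at ZT12, within a protocol of 8 weeks) and the other on a control diet that was free until food was limited to the night in the last week. WT mice in the time series carried the floxed GR gene without Cre, and GR LKO mice carried the same floxed gene with Cre driven by the albumin promoter, which deletes it in hepatocytes and leaves it in the other cells of the liver; both were on the C57BL/6J background. On caloric restriction each genotype had 3 mice per time point (36 livers). On control diet there were 3 or 4 (42 livers, with 4 mice of each genotype at ZT8 and ZT12 and 4 WT mice at ZT16 and ZT20). A separate diet comparison at ZT12 held 3 restricted WT livers and 3 WT controls. The titles of these controls say AL, and night-restricted feeding is what their treatment label says. The corticosterone experiment held 3 WT livers after daily injections of corticosterone (5 mg per kg for 7 days) and 3 after vehicle. All were taken at ZT12, also from mice aged 12 weeks at the start. During those days food was limited to the night in both groups. These mice and those of the diet comparison were C57BL/6J too. The paper does not say whether they carried the floxed GR gene.

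In the time series, libraries held a median of 17386700 estimated counts under restriction and 13427104 under control feeding. The median was 37407547 in the diet comparison and 14431389 in the corticosterone experiment, and the lowest of all libraries held 10057544. Levels are given as counts-per-million (CPM) values, scaled within each table. In the time series the 2 diets are also 2 separate sets of libraries, so that diet and set cannot be told apart there and levels were not compared between them.

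The deleted gene was checked first. *Nr3c1* (ENSMUSG00000024431), which encodes GR, lay between 70.5 and 113 CPM (median 94) in the 18 restricted WT livers and between 21.6 and 32.2 CPM (median 25) in the 18 GR LKO livers. On control diet it lay between 72.8 and 117 CPM (median 86.9, n = 22) in WT and between 16.2 and 28.8 CPM (median 21.7, n = 20) in GR LKO. Every library thus fell on the side its genotype label gives.

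The contrast that chose the genes was widest at ZT12 on caloric restriction. *Paqr9* encodes a membrane protein of the progestin and adipoQ receptor family. It was at 63.1, 79.1 and 68.9 CPM in WT against at 234, 255 and 252 CPM in GR LKO. Every GR LKO liver was above every WT liver, and the means differed by 1.82 ± 0.10 on the log2 scale (difference of means of log2 CPM ± SE, n = 3 per genotype).

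*Sept11* encodes a septin, a GTP-binding protein that assembles into filaments of the cytoskeleton. It read 5.68, 6.9 and 6.72 CPM in WT against 28.1, 29.3 and 24.9 CPM in GR LKO (log2 difference 2.07 ± 0.11), without overlap. *D130043K22Rik* is the mouse counterpart of human KIAA0319, a membrane protein. Its levels were 10, 8.3 and 9.77 CPM in WT against 36.8, 37.9 and 37.7 CPM in GR LKO (1.99 ± 0.09), with little spread in either genotype.

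*Apol7a* belongs to the apolipoprotein L family. It stood at 88.1, 105 and 93.5 CPM in WT against 220, 223 and 229 CPM in GR LKO (1.23 ± 0.07). *Gna12* encodes the alpha subunit of a heterotrimeric G protein. The 3 WT livers had 76.2, 67.7 and 63.6 CPM of it and the GR LKO livers 139, 161 and 168 CPM (1.17 ± 0.11). For both genes the groups did not overlap, in the contrast by which they were chosen.

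*Cldn2* encodes a claudin that forms pores for small cations and water in tight junctions. Its WT values were 30.6, 33.1 and 25.7 CPM, and its GR LKO values 72.3, 55.4 and 60 CPM (1.06 ± 0.16). *Mettl7b* encodes a thiol methyltransferase found at the endoplasmic reticulum and lipid droplets. WT livers held 506, 517 and 525 CPM and GR LKO livers 843, 1009 and 977 CPM (0.87 ± 0.08), the smallest log2 difference of the 8.

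*Bcar1* encodes p130Cas, a scaffold protein of focal adhesions. It had no count in any of the 3 WT livers and read 15.4, 12.2 and 2.09 CPM in GR LKO. That GR LKO mean was 50.3-fold above a level of 3 counts per library, a floor that covers counting error only. The estimate of *Bcar1* was the least steady of the 8, and a count of 0 may not mean that the transcript was absent. No lower bound on the difference is therefore read from these values. WT livers at ZT12 on caloric restriction in the separate diet comparison, whose table was normalized separately, read 13.9, 10.1 and 7.83 CPM. *Bcar1* was also at 0 in 2 other WT livers of the time series, its median coefficient of variation over groups was 38.3%, and for the other genes that median lay between 7% (*Mettl7b*) and 18% (*Sept11*).

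**Figure D1:**
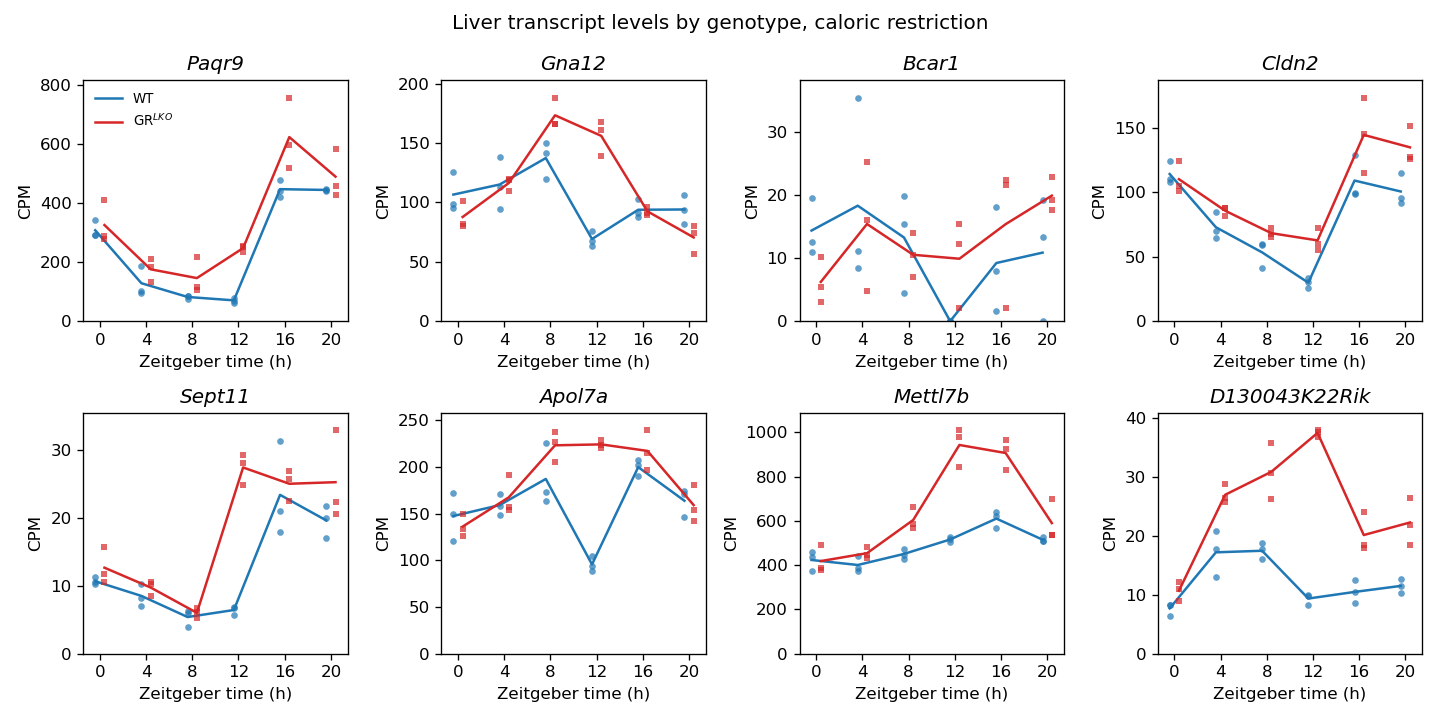
Transcript levels (CPM) of the 8 genes in livers on caloric restriction against Zeitgeber time (h), with 1 point per liver and lines through the means of 3 livers, WT in blue circles and GR LKO in red squares. At ZT12 the red points lie above the blue points in all 8 panels, and at the other times the genotypes of *Sept11* and *Apol7a* overlap.

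The number of the 8 genes whose GR LKO livers all lay above all WT livers changed with the time of day on caloric restriction. It was 1 at ZT0 (against 9.75% of all genes tested), 1 at ZT4 (against 11%), 5 at ZT8 (against 11.8%), 8 at ZT12 (against 18%), 3 at ZT16 (against 13.2%) and 3 at ZT20 (against 10.9%). These shares describe the contrast by which the genes were picked, and nothing is read from them. All 8 genes passed the filter on low counts in each of these comparisons. Their median log2 difference was −0.04 at ZT0, 0.20 at ZT4, 0.35 at ZT8, 1.52 at ZT12, 0.43 at ZT16 and 0.26 at ZT20.

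*Paqr9*, *Gna12*, *Cldn2*, *Apol7a* and *Bcar1* had their lowest WT mean at ZT12, where the gap was widest. *Gna12* fell in WT from a mean of 137 CPM at ZT8 to 69.2 CPM at ZT12 and was at 93.8 CPM at ZT16, while in GR LKO it went from 174 to 156 and then 92.5 CPM. *Apol7a* followed the same course in WT, with 187 CPM at ZT8, 95.4 CPM at ZT12 and 200 CPM at ZT16. Without GR the dip was absent in the means, at 223, 224 and 217 CPM.

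The WT means of *Sept11* were 5.39 CPM at ZT8, 6.43 CPM at ZT12 and 23.4 CPM at ZT16. In GR LKO they were 6.02, 27.4 and 25 CPM, so that the mean at ZT12 was close to that at ZT16. At ZT8 and at ZT16 the 2 genotypes overlapped.

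*Paqr9* and *Cldn2* fell through the light phase in WT and were higher again at night in both genotypes. The WT mean of *Paqr9* was 70.3 CPM at ZT12 and 446 CPM at ZT16, and the GR LKO mean 247 and 622 CPM. At ZT20 the genotypes overlapped, at 444 ± 3.38 CPM in WT against 489 ± 82 CPM in GR LKO (SD, n = 3). *Cldn2* had its lowest mean at ZT12 in both genotypes, 29.8 CPM in WT against 62.6 CPM in GR LKO, and its highest at ZT0 in WT (114 CPM) and at ZT16 in GR LKO (144 CPM).

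The other 2 genes with steady estimates differed over more of the day. *D130043K22Rik* was higher in every GR LKO liver than in every WT liver at all 6 time points on caloric restriction, with log2 differences from 0.46 ± 0.18 at ZT0 to 1.99 ± 0.09 at ZT12. *Mettl7b* had non-overlapping genotypes at ZT8, ZT12, ZT16 and ZT20, though at ZT20 only just (509, 507 and 529 CPM in WT against 536, 534 and 700 CPM in GR LKO, 0.18 ± 0.13). Its GR LKO mean was 943 CPM at ZT12 and 907 CPM at ZT16, against 516 and 610 CPM in WT.

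On control diet the groups did not overlap, with GR LKO above WT, for 4 genes at ZT0 (against 12.2% of all genes tested), 1 at ZT4 (8.08%), 1 at ZT8 (4.11%), 4 at ZT12 (4.41%), 4 at ZT16 (8.64%) and 3 at ZT20 (5.51%). The median log2 difference over the 8 genes was 0.29 at ZT0, 0.11 at ZT4, 0.04 at ZT8, 0.46 at ZT12, 0.41 at ZT16 and 0.33 at ZT20. Whether a difference between genotypes depended on the diet was not tested.

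At ZT12 on control diet *Paqr9* was at 172, 135, 141 and 139 CPM in WT against 392, 341, 371 and 355 CPM in GR LKO (1.32 ± 0.09, n = 4 per genotype). *Cldn2* was at 43.9, 36.3, 38.3 and 37.3 CPM in WT against 81.6, 80.9, 77.8 and 76.4 CPM in GR LKO (1.02 ± 0.07). *D130043K22Rik* was at 7.13, 6.01, 4.36 and 5.2 CPM in WT against 11.7, 10.2, 17.6 and 11.6 CPM in GR LKO (1.14 ± 0.22). In these 3 genes the genotypes did not overlap on this diet either.

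*Gna12* was just separated at that time, at 129 to 157 CPM in WT against 159 to 178 CPM in GR LKO (0.17 ± 0.08). The genotypes overlapped for *Apol7a* (137 ± 12.6 CPM in WT, 144 ± 21 CPM in GR LKO), *Sept11* (5.56 ± 1.2 and 7.2 ± 0.986 CPM), *Mettl7b* (594 ± 49.8 and 727 ± 100 CPM) and *Bcar1* (17.2 ± 6.58 and 24.7 ± 9.04 CPM; SD, n = 4). *Apol7a* ran the other way at ZT8, where the WT livers (124, 137, 129 and 133 CPM) were all above the GR LKO livers (99.9, 112, 119 and 108 CPM).

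**Figure D2:**
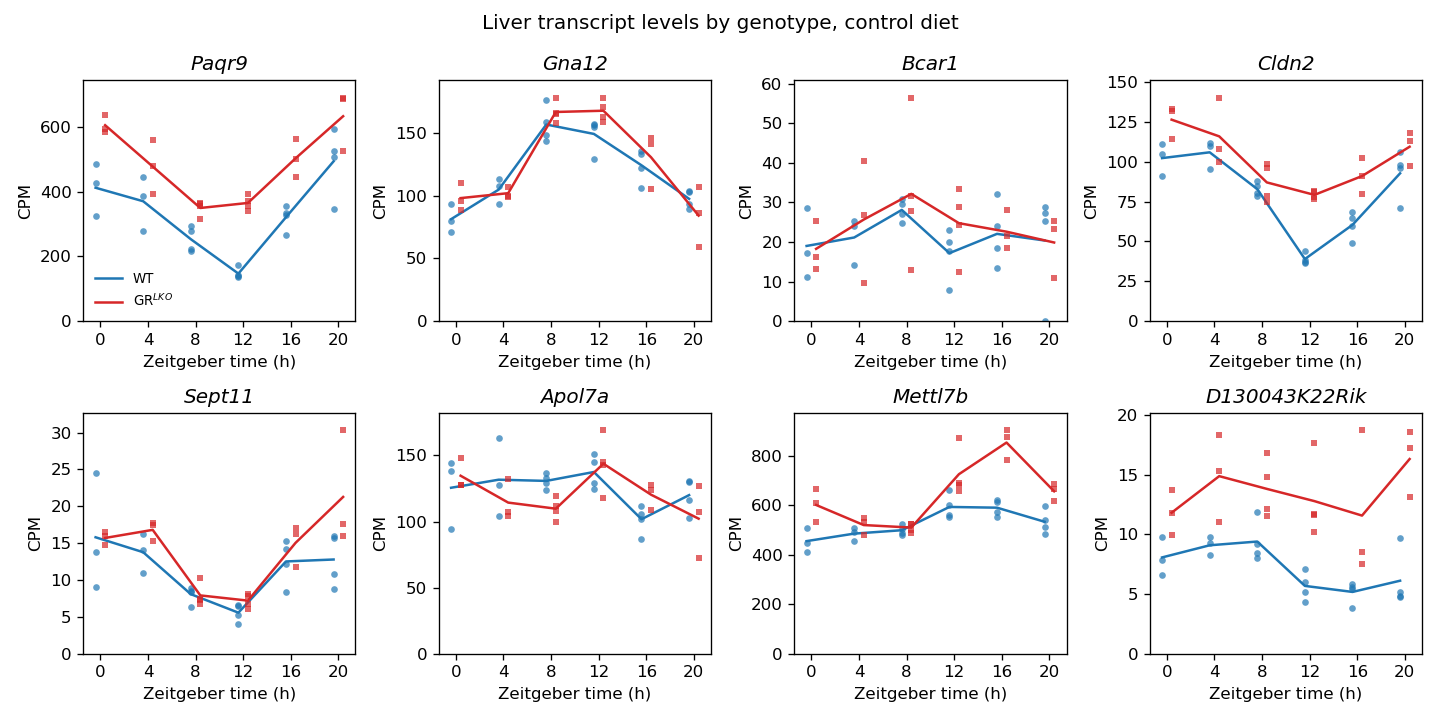
Transcript levels (CPM) of the 8 genes in livers on control diet against Zeitgeber time (h), with 1 point per liver and lines through the means of 3 or 4 livers, WT in blue circles and GR LKO in red squares. *Paqr9* and *Cldn2* separate by genotype at ZT12, where WT is at its lowest mean, while *Apol7a* overlaps there.

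Summed markers of other liver cells differed with the genotype at ZT12 on caloric restriction. The 8 markers of Kupffer and myeloid cells, all in the tables, summed to 53.6, 87.8 and 63.5 CPM in WT against 149, 118 and 181 CPM in GR LKO, led by *Clec4f* (mean 18.2 and 39.6 CPM), and 7 were higher without overlap. The 6 endothelial markers summed to 163, 149 and 180 CPM in WT against 213, 199 and 222 CPM in GR LKO, led by *Clec4g* (56.9 and 63.2 CPM), and 5 were higher without overlap. Of the 7 hepatocyte markers 6 were in the tables, and they summed to 171564, 177230 and 178822 CPM in WT against 129964, 138359 and 120365 CPM in GR LKO, led by *Alb*, and 5 were lower without overlap. Cholangiocyte markers (5 of 5 in the tables) summed to 26.4, 31.2 and 29.1 CPM in WT against 31.5, 32.5 and 32 CPM in GR LKO, led by *Spp1*, with *Epcam* at 0, and 2 were higher and 1 lower without overlap.

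The 6 adipocyte markers summed to 5.68, 0.976 and 1.64 CPM in WT against 8.95, 13.3 and 19.4 CPM in GR LKO, led by *Plin4*, with *Plin1* and *Lep* at 0, and only 1 was higher without overlap. For stellate cells, lymphocytes, neutrophils and erythrocytes the sums of the genotypes overlapped. At ZT12 on control diet the sums overlapped for all 9 marker lists, and of single markers 2 of hepatocytes were lower and 1 of neutrophils higher in GR LKO without overlap. In whole liver, fewer cells of a type and less RNA per cell cannot be told apart, and the part of these cells in the levels of the 8 genes was not tested.

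WT livers at ZT12 were compared between the diets in the separate diet comparison. The paper infers that restricted mice ate as soon as food was given, so hours since the last meal may differ too. The amount of food and the time since feeding cannot be told apart here. Of the 8 genes 5 were lower on caloric restriction and 2 were higher, by edgeR's quasi-likelihood test at an adjusted p under 0.05. Of all 13062 genes tested, 23.6% were lower and 23.5% higher. The median log2 fold change was −0.70 over the 8 genes and −0.00 over all genes tested.

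*Paqr9* was at 416, 403 and 475 CPM on control diet and at 126, 136 and 117 CPM on caloric restriction. It was 3.42-fold lower under restriction, a log2 fold change of −1.77 ± 0.10 (SE, edgeR adjusted p = 8.18e-05). *Cldn2* read 68.9, 96.3 and 87 CPM on control diet and a tight 30.2, 28.8 and 27.9 CPM on caloric restriction (log2 fold change −1.54 ± 0.12, edgeR adjusted p = 2.35e-04). For both genes the 3 restricted livers lay below the 3 controls.

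*Apol7a* fell as well, from 159, 146 and 137 CPM to 72, 59.8 and 44 CPM (−1.33 ± 0.17, edgeR adjusted p = 0.0011). *Gna12* was at 178, 159 and 138 CPM on control diet and 77.3, 96 and 94 CPM on caloric restriction (−0.83 ± 0.12, edgeR adjusted p = 0.00194). *Mettl7b* fell by less, from 535, 586 and 588 CPM to 451, 471 and 462 CPM (−0.31 ± 0.07, edgeR adjusted p = 0.0113). In these 3 genes too the groups did not overlap.

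*Sept11* and *D130043K22Rik* went the other way. *Sept11* rose from 5.91, 7.63 and 6.73 CPM to 10.4, 9.56 and 9.69 CPM (0.54 ± 0.12, edgeR adjusted p = 0.00795), higher in 3 of 3 restricted livers. *D130043K22Rik* rose from 4.19, 3.92 and 5.31 CPM to 7.65, 9.3 and 12.1 CPM (1.11 ± 0.20, edgeR adjusted p = 0.00387), also in 3 of 3. *Bcar1* was at 17.7, 16.3 and 13.3 CPM on control diet and 13.9, 10.1 and 7.83 CPM on caloric restriction, which did not pass (−0.58 ± 0.21, edgeR adjusted p = 0.0562). It passed with DESeq2 (adjusted p = 0.0239) and without replicate 1 of the restricted livers (edgeR adjusted p = 0.00867), and over all alternatives its adjusted p ran from 0.00867 to 0.163.

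Sums of marker lists differed in this comparison too, some through a single marker. Endothelial markers (6 of 6) summed to 116, 149 and 153 CPM on control diet and 194, 194 and 222 CPM on caloric restriction, led by *Kdr*, and all 6 were higher without overlap. Stellate cell markers (6 of 6, led by *Dcn*) went from 199, 212 and 168 CPM to 283, 249 and 286 CPM, and *Dcn* went from a mean of 105 to 177 CPM, while of the 6 markers 2 were higher and 1 lower without overlap. Lymphocyte markers (6 of 6, led by *Cd79b*) went from 3.17, 4.39 and 2.35 CPM to 0.825, 1.2 and 1.04 CPM (4 lower without overlap), and neutrophil markers (5 of 5, led by *S100a9*, with *Ly6g* at 0) from 0.324, 0.653 and 0.687 CPM to 0.171, 0.234 and 0.273 CPM (2 lower without overlap). Hepatocyte markers (6 of 7 in the tables, led by *Alb*) summed to 96210, 97610 and 101794 CPM and to 162257, 162640 and 163906 CPM. The mean of *Alb* alone went from 66285 to 131578 CPM and that of the sum from 98538 to 162934 CPM, so that the other 5 together did not rise, and of the 6 markers 3 were higher and 1 lower without overlap. The sums of the other 4 lists overlapped between the diets, and the part of these cells in the changes of the 8 genes was not tested. The share of all genes without overlap was not counted between the diets, so nothing is read from the counts of single markers.

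The corticosterone experiment asked whether more GR ligand, with no change of diet, moves the same transcripts. Of these genes 2 were lower after corticosterone and none was higher, where 3.64% of the 11523 genes tested were lower and 4.47% higher. The median log2 fold change was −0.23 over the 8 genes and −0.01 over all genes. Of the 8, 3 had an unadjusted edgeR p under 0.05, none of them higher, and DESeq2 called 2.

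*Paqr9* was at 297, 333 and 296 CPM after vehicle and 202, 175 and 193 CPM after corticosterone, a log2 fold change of −0.70 ± 0.10 (edgeR adjusted p = 0.00953), with the 3 treated livers below the 3 controls. Without vehicle replicate 2 its edgeR adjusted p was 0.0527, the highest over all alternatives, and the lowest was 3.76e-08 (DESeq2). *Sept11* was at 8.99, 15.6 and 12.5 CPM after vehicle and 4.78, 4.88 and 6.43 CPM after corticosterone (−1.21 ± 0.23, edgeR adjusted p = 0.0251), again without overlap. Of the 6 libraries, leaving out vehicle replicate 1 kept this call. Leaving out any of the other 5 gave an edgeR adjusted p from 0.0507 to 0.0888, namely 0.0888 and 0.0768 without vehicle replicates 2 and 3 and 0.0812, 0.0542 and 0.0507 without corticosterone replicates 1, 2 and 3.

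The remaining genes did not pass the test. *Gna12* was at 112, 131 and 111 CPM after vehicle and 102, 89.6 and 95.9 CPM after corticosterone (−0.30 ± 0.10, edgeR adjusted p = 0.107), with groups that did not overlap. *Cldn2* was at 49.4, 55.9 and 55 CPM and at 49.4, 48 and 32.6 CPM (−0.30 ± 0.17, edgeR adjusted p = 0.298), with overlap. *Apol7a*, which was lower on caloric restriction, was nearly level at 93, 99.1 and 99.4 CPM after vehicle and 96.1, 96.1 and 94.7 CPM after corticosterone (−0.02 ± 0.08, edgeR adjusted p = 0.88). *Mettl7b* (−0.14 ± 0.11), *Bcar1* (−0.17 ± 0.24) and *D130043K22Rik* (0.31 ± 0.32) had edgeR adjusted p from 0.455 to 0.713.

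Corticosterone also went with shifts in marker lists. Kupffer and myeloid markers (8 of 8, led by *Clec4f*) summed to 80.4, 103 and 110 CPM after vehicle and 114, 164 and 140 CPM after corticosterone (3 higher without overlap), and endothelial markers (6 of 6, led by *Clec4g*) to 95.2, 102 and 120 CPM and 77.1, 85.2 and 92.5 CPM (2 lower and 1 higher without overlap). Neutrophil markers (5 of 5, led by *S100a9*, *Ly6g* at 0) went from 0.0719, 0.621 and 0.615 CPM to 2.35, 1.98 and 1.57 CPM (3 higher without overlap). Erythrocyte markers (6 of 6, led by *Hbb-bs*) went from 699, 632 and 785 CPM to 327, 558 and 301 CPM (4 lower without overlap), and adipocyte markers (6 of 6, led by *Cidec*, with *Plin1* and *Lep* at 0) from 6.18, 10.6 and 5.06 CPM to 1.74, 0.923 and 3.76 CPM, with no single marker apart. The sums of the other 4 lists overlapped, and the part of these cells in the changes of *Paqr9* and *Sept11* was not tested. Nothing is read from the counts of single markers here either, since the share of all genes without overlap was not counted.

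**Figure D3:**
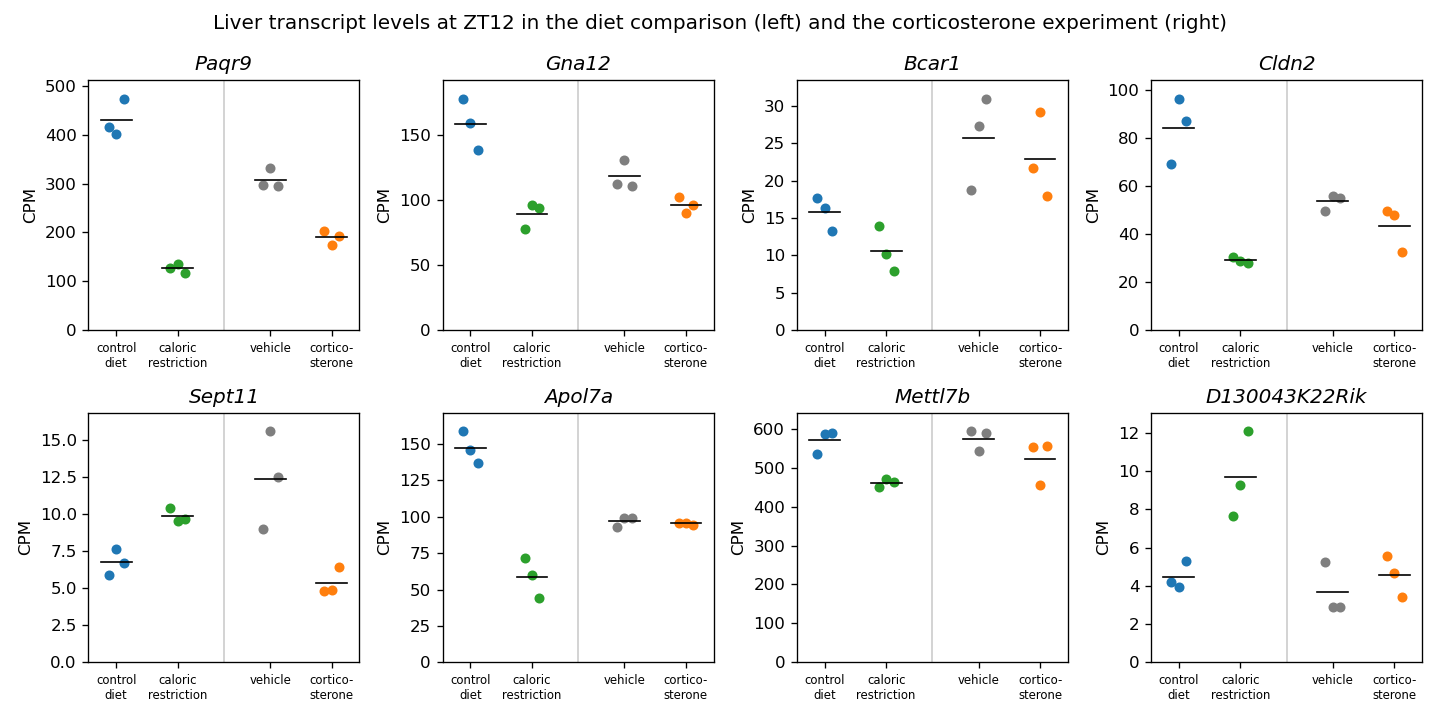
Transcript levels (CPM) at ZT12 in WT livers of the diet comparison (left of the grey line, control diet in blue, caloric restriction in green) and of the corticosterone experiment (right, vehicle in grey, corticosterone in orange), with 1 point per liver and a bar at the mean of 3. *Paqr9* is lower in both treatments, at 117 to 136 CPM and 175 to 202 CPM, while *Sept11* is higher on caloric restriction and lower after corticosterone.

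Daily rhythms were tested with JTK_CYCLE at a period of 24 h in each genotype and diet. On caloric restriction 3 of the 8 genes passed in WT (*Paqr9*, *Sept11* and *Mettl7b*), against 21.3% of all genes tested, and 6 in GR LKO (all but *Bcar1* and *Sept11*), against 19.6%. On control diet 6 passed in WT (all but *Bcar1* and *Apol7a*), against 25.1%, and 4 in GR LKO (*Paqr9*, *Gna12*, *Cldn2* and *Mettl7b*), against 21.6%. The ZT12 livers of both genotypes may have entered the choice of the genes. Without them the counts were 3, 6, 2 and 3 in the same order, against 13.7%, 11.5%, 13.5% and 7.33% of all genes. On caloric restriction *D130043K22Rik* then no longer passed in GR LKO (JTK_CYCLE adjusted p = 0.627) and *Sept11* did (0.0123). In WT on control diet *Paqr9*, *Cldn2*, *Sept11* and *D130043K22Rik* no longer passed (JTK_CYCLE adjusted p = 0.0587, 0.0619, 0.74 and 0.163), nor did *Gna12* in GR LKO (0.149). With the livers of 1 replicate number left out the counts were no higher than with all livers. On caloric restriction they were 1 in WT (against 2.11% to 4.03% of all genes) and 1 to 2 in GR LKO (1.59% to 2.09%). On control diet they were 3 to 5 in WT (12% to 18.6%) and 0 to 4 in GR LKO (6.31% to 18.5%). Replicate 4 was present there only at ZT8 and ZT12 in GR LKO and from ZT8 to ZT20 in WT. Leaving it out removed livers at those times only. A difference in rhythm between genotypes was not tested.

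*Paqr9* passed in all 4 groups with all livers, with phases fitted at ZT20 or ZT0, while its highest means on caloric restriction were at ZT16 in both genotypes. Its amplitude, on the variance-stabilized log2 scale, was 1.56 in WT and 0.94 in GR LKO on caloric restriction (JTK_CYCLE adjusted p = 0.00545 and 0.00448) and 0.62 and 0.45 on control diet (0.00197 and 0.00146). On caloric restriction these calls were lost with any 1 replicate left out (adjusted p up to 0.121 in WT and 0.145 in GR LKO), and on control diet that in WT was lost without the ZT12 livers and that in GR LKO without replicate 3 (0.073). *Mettl7b* also passed in every group with all livers, with phases fitted at ZT16 or ZT12, and its amplitude was 0.26 in WT and 0.55 in GR LKO on caloric restriction (JTK_CYCLE adjusted p = 5.48e-04 and 0.00177). Its calls were lost without replicate 1 in WT (0.0641) and without replicate 2 or 3 in GR LKO (up to 0.112) on caloric restriction, and on control diet without replicate 3 or 4 in WT (up to 0.0702) and without replicate 1 or 3 in GR LKO (up to 0.0551).

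*Gna12* passed in GR LKO on caloric restriction with a phase fitted at ZT8 and an amplitude of 0.56 (JTK_CYCLE adjusted p = 3.73e-04), but not in WT (adjusted p = 0.337). Without the ZT12 livers these were 0.0029 and 0.12. *Apol7a* had JTK_CYCLE adjusted p = 1 in WT and 0.00237 in GR LKO, where the phase was fitted at ZT12, and 0.0842 and 0.00592 without the ZT12 livers; in GR LKO its call was lost without replicate 1 or 2 (up to 0.15). A gene that did not pass need not have been level over the day, and the WT means of both genes were lowest at ZT12, a value by which the genes were chosen. *Bcar1* passed JTK_CYCLE in no group.

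The patterns of the 8 genes over the 24 group means of the time series, each centred within its diet, were not alike. Of the 28 pairs, 25 had a Pearson correlation above 0 and the median was 0.32. The closest pairs were *Paqr9* with *Cldn2* (r = 0.88) and *Paqr9* with *Sept11* (r = 0.87), and the most opposed was *Gna12* with *Sept11* (r = −0.49). Part of any such likeness is the contrast of genotypes itself, by which all 8 were picked.

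Among 8633 genes with at least 5 CPM on both diets, those most like each gene over these 24 means were *Sec14l2* (r = 0.93) and *Parp1* (0.91) for *Paqr9*, and *Tlcd2* and *Ptpn6* (both 0.93) for *Cldn2*. *Mettl7b* was closest to *Abhd6* (0.95), a monoacylglycerol lipase, and *Adh1* (0.93), an alcohol dehydrogenase. *D130043K22Rik* was closest to *Aldh3a2* (0.91), a fatty aldehyde dehydrogenase, and the lipoprotein receptor gene *Vldlr* (0.89). For *Gna12* they were *Slc22a23* and *Ell* (both 0.90), and for *Sept11* the syndecan gene *Sdc1* and the junction receptor gene *Cxadr* (both 0.88). *Bcar1* (*Rfx5* 0.83, *Trim26* 0.81) and *Apol7a* (the copper transporter gene *Atp7b* 0.77, *Lima1* 0.74) had no closer match. These values are descriptions over means that share libraries.

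Relatives and partners of the 8 genes were read at ZT12 with the same edgeR test of genotype. Of 103 genes in 10 lists, 101 were in the tables. On caloric restriction 71 were tested, of which 10 were higher in GR LKO and 3 lower, where 7.42% of all 11759 genes tested were higher and 7.84% lower. On control diet 66 were tested, with 1 higher and 1 lower, where 0.814% of all genes were higher and 1.27% lower. The median log2 fold change of the lists together was 0.15 on caloric restriction and 0.05 on control diet, against −0.00 and 0.00 over all genes. In the diet comparison 24 of 75 tested list genes were higher and 16 lower, where 23.5% of all genes tested were higher and 23.6% lower. After corticosterone 4 of 68 were higher and 8 lower, where 4.47% of all genes were higher and 3.64% lower.

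The receptor family of *Paqr9* had the most calls, with 4 of 7 tested genes higher on caloric restriction and none lower. *Mmd2* was at 4.01 ± 0.886 CPM in WT against 22.8 ± 5.21 CPM in GR LKO (SD, n = 3; log2 fold change 2.49 ± 0.22 SE, edgeR adjusted p = 8.46e-04). *Paqr7*, a membrane progestin receptor gene, was at 17.1 ± 1.57 and 43.3 ± 3.88 CPM (1.33 ± 0.10, edgeR adjusted p = 5.80e-04). The other 2 were the adiponectin receptor gene *Adipor2* (0.58 ± 0.09, edgeR adjusted p = 0.00742) and *Mmd* (0.34 ± 0.09, edgeR adjusted p = 0.0434). The call of *Mmd* was lost with any 1 of the 6 libraries left out and without the filter on low counts (edgeR adjusted p up to 0.144), and those of the other 3 held under every alternative. On control diet edgeR called 0 of the 7 and DESeq2 2, where *Mmd2* and *Paqr7* had edgeR adjusted p of 0.0502 and 0.166. In the diet comparison 3 of the 7 were lower and 3 higher on caloric restriction, with a median log2 fold change of −0.02. The lower ones were *Mmd2* (−2.09 ± 0.30), *Paqr7* (−2.03 ± 0.10) and *Adipor2* (−0.38 ± 0.08; edgeR adjusted p = 0.00165, 5.05e-05 and 0.00904), and the higher ones *Paqr3* (0.73 ± 0.12), *Paqr4* (0.53 ± 0.17) and the other adiponectin receptor gene, *Adipor1* (0.21 ± 0.06; edgeR adjusted p = 0.00279, 0.0386 and 0.0283). The call of *Paqr4* was lost with any 1 library left out, with DESeq2 and without the filter on low counts (adjusted p up to 0.107), and that of *Adipor1* without any control replicate or caloric restriction replicate 2 (up to 0.0902). After corticosterone *Paqr7* was lower (−1.40 ± 0.34, edgeR adjusted p = 0.0485), a call lost without any 1 library but corticosterone replicate 2 (adjusted p over the alternatives from 1.71e-04 to 0.149).

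Of the apolipoprotein L family 4 genes were tested on caloric restriction and 2 were higher in GR LKO, *Apol9a* (21.8 ± 6 and 65.6 ± 12.4 CPM, 1.58 ± 0.23, edgeR adjusted p = 0.00558) and *Apol9b* (33.7 ± 9.68 and 69.9 ± 4.67 CPM, 1.04 ± 0.20, edgeR adjusted p = 0.0151). The call of *Apol9b* was lost without GR LKO replicate 2 or 3 (edgeR adjusted p up to 0.0558). These 2 are close copies, as are several *Apol7* genes, so that counts may be split between copies. Among 5 claudins tested edgeR called *Cldn3* alone (DESeq2 called 2 on caloric restriction and 1 on control diet), higher in GR LKO on both diets (18.7 ± 1.85 and 33.2 ± 10.1 CPM on caloric restriction, edgeR adjusted p = 0.0403; 53.3 ± 5.38 and 83.4 ± 8.97 CPM on control diet, edgeR adjusted p = 0.0123). On caloric restriction this call was lost without any 1 library but GR LKO replicate 1 (edgeR adjusted p over the alternatives from 0.00172 to 0.117). In the diet comparison 8 claudins were tested, and on caloric restriction *Cldn14* was lower (−1.31 ± 0.18, edgeR adjusted p = 0.00139) under every alternative. *Cldn5* was lower too (−0.52 ± 0.14, edgeR adjusted p = 0.0191), a call lost without control replicate 1, and *Cldn8* was higher (1.37 ± 0.41, edgeR adjusted p = 0.0286), a call lost with DESeq2 and without control replicate 1 or 2 or caloric restriction replicate 1 or 3 (adjusted p up to 0.0941). After corticosterone 2 of 5 tested claudins were lower and 1 was higher. *Cldn3* was lower (−0.95 ± 0.11, edgeR adjusted p = 0.0053) and *Cldn14* higher (1.54 ± 0.18, edgeR adjusted p = 0.0049), both under every alternative. *Cldn5* was lower (−1.86 ± 0.32, edgeR adjusted p = 0.0174), a call lost without any vehicle replicate or corticosterone replicate 3 (adjusted p up to 0.0611).

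Of 14 other tight junction genes *Cgn* was higher on caloric restriction (0.83 ± 0.14, edgeR adjusted p = 0.00941) and *Marveld3* lower (2.81 ± 0.518 and 1.41 ± 0.219 CPM, edgeR adjusted p = 0.0403). The call of *Marveld3* was lost with any 1 library left out, with DESeq2 and without the filter on low counts (adjusted p up to 0.136). Of 9 G protein alpha subunit genes *Gnai2* was higher (0.47 ± 0.09, edgeR adjusted p = 0.0147), a call lost without WT replicate 3 or GR LKO replicate 3 (adjusted p up to 0.0729). Of 10 partners of *Bcar1* tested, the kinase gene *Ptk2b* was higher (0.43 ± 0.08, edgeR adjusted p = 0.0144; 0.0606 without GR LKO replicate 3) and the exchange factor gene *Dock1* lower (−0.76 ± 0.12, edgeR adjusted p = 0.00793). Of 8 septins tested on caloric restriction edgeR and DESeq2 called 0, with 1 at an unadjusted edgeR p under 0.05, and of 6 on control diet 0 were called by either, with 0 at that p. The 1 *Mettl7* relative tested passed edgeR on neither diet (DESeq2 called it on caloric restriction), and the 1 KIAA0319 relative passed neither tool on either diet.

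These lists were also counted in the diet and corticosterone comparisons with edgeR. Of all genes tested, 23.5% were higher and 23.6% lower on caloric restriction, and 4.47% higher and 3.64% lower after corticosterone. No response of a family is read from the counts. On caloric restriction 4 of 9 septins were higher and 2 lower (median log2 fold change 0.27), 6 of 14 other tight junction genes were higher and 2 lower (0.37), 2 of 10 G protein alpha subunit genes were higher and 2 lower (0.02), 4 of 10 partners of *Bcar1* were higher and 2 lower (0.31), and of 4 apolipoprotein L genes none was higher and 2 were lower (−1.18). The KIAA0319 relative was higher and the *Mettl7* relative was not called. After corticosterone no gene of these lists was higher. Lower were 2 of 8 septins (median −0.21), 2 of 13 other tight junction genes (0.01) and 1 of 10 partners of *Bcar1* (−0.00), and none of the 9 G protein alpha subunit genes, 3 apolipoprotein L genes or the other 2 relatives. The partner was *Ptk2b* (edgeR adjusted p = 0.0384), a call lost without the filter on low counts and without any 1 library but corticosterone replicate 2 (up to 0.149). List genes not named here were not read under the alternatives.

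The genes lie on 7 chromosomes of mouse build GRCm38 (mm10): *Paqr9* (ENSMUSG00000064225) at chr9:95559657-95568023, *Cldn2* (ENSMUSG00000047230) at chrX:139800828-139811386, *Sept11* (ENSMUSG00000058013) at chr5:93093437-93176447 and *D130043K22Rik* (ENSMUSG00000006711) at chr13:24845135-24901270, all on the plus strand in the GENCODE annotation. On the minus strand are *Gna12* (ENSMUSG00000000149) at chr5:140758408-140830431, *Bcar1* (ENSMUSG00000031955) at chr8:111710474-111743809, *Apol7a* (ENSMUSG00000010601) at chr15:77388219-77399110 and *Mettl7b* (ENSMUSG00000025347) at chr10:128958274-128960988. *Gna12* shares 3032 bases with *Amz1* on the other strand, *Mettl7b* shares 9 bases with *Itga7*, and *Apol7a* encloses an intronic noncoding transcript of 680 bases on its own strand. These bases are shared between the spans of genes, introns included, and whether they touch the estimated counts was not tested.

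RefSeq promoters of 6 of the 8 genes (7 windows on GRCm38.p6, from 250 bases before to 50 bases after the transcription start) were searched on both strands for short motifs of factors known in liver. These were the GR half-site AGAACA, the full palindrome of 2 such half-sites 3 bases apart, the forkhead motif GTAAACA, the STAT motif TTCNNNGAA, the E-box CACGTG and the nuclear receptor half-site AGGTCA. Over all 32851 promoters of 300 bases, 19% held the GR half-site, 0.00913% the palindrome, 3.65% the forkhead motif, 8.3% the STAT motif, 7.15% the E-box and 16.3% the nuclear receptor half-site.

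Of the 7 windows only 2 held any match, and they are shown with that of *Apol7a*, which like *Cldn2* was lower on caloric restriction. The *Cldn2* window (chrX:139800558-139800857, plus strand) held 3 GR half-sites, 2 of them overlapping by 1 base and 1 on the other strand. The *Sept11* window (chr5:93093166-93093465, plus strand) held 1 E-box and the *Apol7a* window (chr15:77399061-77399360, minus strand) held none of these motifs. Matches are in capitals. A match describes letters in the window and is not a site of binding.
Cldn2: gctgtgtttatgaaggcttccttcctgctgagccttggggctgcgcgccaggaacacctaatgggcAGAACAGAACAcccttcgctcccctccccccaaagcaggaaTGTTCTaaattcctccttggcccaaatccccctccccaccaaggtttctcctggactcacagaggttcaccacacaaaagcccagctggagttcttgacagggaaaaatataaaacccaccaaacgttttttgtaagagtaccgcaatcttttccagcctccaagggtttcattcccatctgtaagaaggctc
Sept11: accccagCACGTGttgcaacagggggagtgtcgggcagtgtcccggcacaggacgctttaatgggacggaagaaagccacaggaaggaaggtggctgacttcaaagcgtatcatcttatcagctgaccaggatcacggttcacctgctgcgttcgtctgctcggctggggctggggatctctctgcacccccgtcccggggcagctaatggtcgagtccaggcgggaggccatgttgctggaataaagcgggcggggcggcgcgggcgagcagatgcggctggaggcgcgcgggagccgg
Apol7a: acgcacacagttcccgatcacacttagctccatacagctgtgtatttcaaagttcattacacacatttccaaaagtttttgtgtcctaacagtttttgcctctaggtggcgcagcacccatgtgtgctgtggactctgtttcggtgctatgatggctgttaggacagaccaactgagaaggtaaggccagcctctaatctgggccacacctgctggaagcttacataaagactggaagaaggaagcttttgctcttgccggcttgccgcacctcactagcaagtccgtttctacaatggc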

How the data were processed

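The authors made poly(A) libraries, read as pairs, and checked the reads with FastQC 0.11.9. Salmon 1.8.0 and tximport 1.18.0 gave the estimated counts per gene that they deposited, which are not normalized; the transcript annotation is not given in the sources used here. The authors name DESeq2 1.30 for their own tests. A deposited table of variance-stabilized values, with 6 columns of samples, was not used here. Of 27654 gene IDs 27244 were matched to a symbol.

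Estimated counts were rounded and read in R 4.3.3. Pairs of groups were compared with edgeR 4.0.16 (quasi-likelihood test, TMM, filterByExpr with a minimum count of 10), with Benjamini-Hochberg adjustment over all genes tested and calls under 0.05. CPM was scaled within each table, with a prior count of 2 on the log2 scale. SE of a genotype difference is over livers. Rhythms were tested with an own implementation of JTK_CYCLE (exact null, 24 h, 6 phases) on variance-stabilized values from DESeq2 1.42.0, for genes with at least 1 count, and called at an adjusted p under 0.05 and an amplitude above 0.1. Both tests were tested on simulated data. The floor of 3 counts covers counting error only. Libraries are of single mice, and none of 102 pairs within groups agreed within sampling noise (lowest chi-square per degree of freedom 10.9).

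The 8 genes and the lists were chosen with earlier results of these data known. Named besides the 8 genes and *Nr3c1* are, of the lists, every gene called between genotypes at ZT12, or the 5 that differed most in each direction where over 10 were called, and the 2 genes most correlated with each of the 8. *Mmd*, *Gnai2*, *Ptk2b*, *Adipor2*, *Adipor1*, *Paqr3*, *Paqr4*, *Cldn5*, *Cldn8* and *Cldn14* fall outside that rule and were named after their values were seen. The alternatives were DESeq2, RLE factors, no filter on low counts, a replicate block, each library left out, log2 CPM or an edgeR F test for rhythms, no amplitude filter and no ZT12 libraries. Reading the named list genes under these alternatives was added after the data were seen. The genes of 1 list, counted in the totals over the lists, are an exception to the rule and are not reported here.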

Additional observations from a re-analysis of the deposited data

Results flagged for a closer look

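In 48 sets of 4 livers (8 genes in 6 groups on control diet), 5 values stood apart from the other 3 livers by more than the 95% limit of Dixon's test for a single outlying value, which chance alone passes in about 1 of 20 sets. At ZT12 in WT, *Paqr9* was at 172 CPM in 1 liver and at 135, 139 and 141 CPM in the others, and *Gna12* was at 129 CPM against 155, 156 and 157 CPM. At ZT20 in WT, *Bcar1* had a level of 0 CPM in 1 liver against 25.3, 27.4 and 28.8 CPM, and *D130043K22Rik* was at 9.69 CPM in another liver against 4.73, 4.86 and 5.16 CPM. At ZT12 in GR LKO, *Mettl7b* was at 875 CPM against 658, 682 and 691 CPM.

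On caloric restriction 2 genes had genotypes apart in opposite directions at different times. *Gna12* was higher in every GR LKO liver at ZT8 and ZT12 and lower in every one at ZT20, by −0.42 on the log2 scale (80.5, 56.4 and 74.6 CPM against 106, 82.1 and 94 CPM in WT). *Bcar1* was higher at ZT12 and lower at ZT0, by −1.32 (5.43, 3.02 and 10.2 CPM against 10.9, 12.6 and 19.6 CPM). Neither difference between time points was tested.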

How the results depend on the processing

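The diet effect called 7 to 8 of the 8 genes under every alternative run, and no alternative turned the direction of a called gene. With corticosterone the count of the 8 called was 0 to 2 with 1 library left out (0 without vehicle replicate 2), and that of all genes went from 935 to between 206 (without vehicle replicate 2) and 1008. Replicate numbers did not pair the livers: correlations of same-numbered deviations ran from −0.06 to 0.11 in the diet comparison, −0.01 to 0.10 with corticosterone, −0.09 to 0.01 and −0.02 to 0.03 between genotypes, and every liver correlated best with its own number in none of the 4. The replicate block moved the corticosterone count of genes to 534 and the control-diet count of relatives and partners from 2 to 0; it added *Bcar1* to the diet calls (edgeR adjusted p = 0.0105) and changed no other call of the 8 genes. Among named relatives and partners it ended the calls of *Mmd*, *Cldn3*, *Gnai2* and *Marveld3* on caloric restriction, *Cldn3* on control diet (edgeR adjusted p = 0.0851), *Adipor1*, *Paqr4* and *Cldn5* in the diet comparison and *Paqr7* and *Ptk2b* with corticosterone. DESeq2 called 20 relatives and partners on caloric restriction and 5 on control diet, against 13 and 2; leaving out 1 library gave 7 (without GR LKO replicate 3) to 11, and 1 (without any WT replicate or GR LKO replicate 2 or 4) to 2. RLE factors moved no genotype difference by more than 0.03 (log2).

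Rhythm calls were less stable. Leaving out the livers of 1 replicate number gave, of the 8 genes, 1 in WT and 1 to 2 in GR LKO on caloric restriction. On control diet, where replicate 4 was absent at some times, it gave 3 to 5 and 0 (without replicate 3) to 4. These fits held fewer livers. The edgeR F test called 8 in WT on caloric restriction, where it called 8123 of all genes. That test includes the ZT12 livers that may have entered the choice of the genes, and nothing is read from its count. Without ZT12, JTK_CYCLE called 2 in WT on control diet. Of all genes, JTK_CYCLE called 3980 and 3706 on caloric restriction (WT, GR LKO) and 4744 and 4046 on control diet. Without ZT12 it called 2547, 2170, 2541 and 1371, with a replicate left out as few as 393, 301, 2270 and 1181, and the F test called 8123 and 7713 on caloric restriction. What depth adds to the spread of *Sept11* and *D130043K22Rik*, whose levels were low, was not tested. The cause of these shifts was not tested.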

Other observations

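WT livers at ZT12 on control feeding were measured in 3 experiments, whose tables were scaled separately. *Paqr9* was at 135 to 172 CPM in the time series, 403 to 475 CPM in the diet comparison and 296 to 333 CPM after vehicle. *Cldn2* was at 36.3 to 43.9 CPM, 68.9 to 96.3 CPM and 49.4 to 55.9 CPM in the same order. *Gna12* (129 to 157, 138 to 178 and 111 to 131 CPM) and *Mettl7b* (554 to 662, 535 to 588 and 542 to 594 CPM) lay closer together. No test was made across tables. The WT mice of the time series carried the floxed GR gene, which is not stated for the others.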
